A study of Mus musculus with 24 samples.

Results

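The comparison covered here is that of open chromatin in the liver of C57BL/6J mice with that of A/J mice, both fed high fat diet for 16 weeks (HF). Open chromatin was mapped by FAIRE-seq, and the deposited data hold 1 peak list for each strain, from groups of 2 libraries each. Peaks of both lists on chromosomes 1 to 19 were joined into regions wherever they shared at least 1 bp. This gave 39007 regions, of 49364 regions on these chromosomes in the 6 lists of the series. Of the 39007, 6002 (15.4%, 95% Wilson interval 15 to 15.7) held a peak in C57BL/6J only, 7646 (19.6%, 19.2 to 20) in A/J only and 25359 (65%, 64.5 to 65.5) in both strains. Wilson intervals here and below cover counting error only.

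The series also profiled both strains on control diet for 16 weeks (Control) and on high fat diet for 8 weeks followed by control diet for 8 weeks (Reversal), by FAIRE-seq and by RNA-seq, with 2 libraries for each of 12 combinations. No transgene, drug or mutation is named for any group, and sex and age of the mice are not given in the sources used here. Whether both libraries of a group stem from different mice is not stated. Because a single list stands for each strain and diet, no difference between the strains has a replicate check and no test was run. Whole liver was used, so that a change in the mix of cell types and a change of chromatin within a cell type cannot be told apart. The labelled tissue was not checked against marker genes, because gene positions in the assembly of the lists were not at hand, and genes and sequences at the regions are not given for the same reason.

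FAIRE stands for formaldehyde-assisted isolation of regulatory elements. DNA wrapped on nucleosomes crosslinks well to protein, while promoters, enhancers and other stretches cleared of nucleosomes stay in the aqueous phase of a phenol extraction and are sequenced. C57BL/6J is the inbred strain from which the mouse reference genome was assembled, and it is widely used because it is prone to obesity and raised blood glucose on high fat diet. A/J is an inbred strain that is known to be more resistant to diet-induced obesity. Inbred strains differ in single bases, in small insertions and in the copy number of longer segments, and each of these can change a regulatory element or the way reads align at it. Whether reads of both strains map alike was not examined, so that a strain difference in chromatin and one in mapping cannot be told apart.

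The HF lists were of similar length. The C57BL/6J list held 32116 peaks on chromosomes 1 to 19, covering 18.5 Mb, and the A/J list 33216 peaks, covering 21.0 Mb. Peaks had a median width of 425 bp for C57BL/6J and 481 bp for A/J. Each peak carries a signal, a deposited value whose scale the sources do not state, and the lowest was 0.0850 in the C57BL/6J list and 0.1066 in the A/J list. The numbering within peak names points to 163827 peaks for C57BL/6J, of which 20.4% were listed, and to 150636 for A/J, of which 22.5% were listed. A region of one strain only is therefore one without a listed peak in the other strain, which does not show that it was closed there.

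Seen from each strain, C57BL/6J-only regions were 19.1% (18.7 to 19.6) of the 31361 regions with a C57BL/6J peak, and A/J-only regions were 23.2% (22.7 to 23.6) of the 33005 regions with an A/J peak. Counted by the bases of whole regions, single-strain regions took a smaller share than by number. C57BL/6J-only regions covered 2.06 Mb and A/J-only regions 2.79 Mb, which is 8.67% of all bases in regions for C57BL/6J only and 11.7% for A/J only, while shared regions covered 19 Mb, or 79.6%. The bases under peaks of both strains amounted to 15.7 Mb, 85% of the bases in C57BL/6J peaks, 74.6% of those in A/J peaks and 65.9% of the bases under a peak of either strain. The same comparison on the other diets gave more regions of one strain only: 22.3% in C57BL/6J only and 28% in A/J only of 45797 regions on Control, and 16.7% in C57BL/6J only and 24.6% in A/J only of 41224 on Reversal. The lists were cut less alike there. Of the numbered peaks, 14.5% for C57BL/6J and 26.4% for A/J were listed on Control, and 18.6% and 30.4% on Reversal. Since single-strain shares depend on the threshold, these values do not show that the strains were more alike on HF.

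Regions of one strain only were narrow. Their median width was 301 bp in C57BL/6J (quartiles 264 and 362) and 307 bp in A/J (quartiles 257 and 411), against 615 bp in shared regions (quartiles 390 and 965). Of regions up to 250 bp wide, 33.8% were of C57BL/6J only, 54.6% of A/J only and 11.6% shared. Between 300 and 400 bp the shares were 22.7% for C57BL/6J only, 22.9% for A/J only and 54.4% for shared regions. Of the 5966 regions over 1000 bp, 45 were of C57BL/6J only, 85 of A/J only and 5836 (97.8%) shared. Every shared region joins peaks of both strains, which adds to its width, and 96.6% of shared regions held 1 peak of each strain. In these the peaks themselves had a median width of 487 bp in C57BL/6J and 570 bp in A/J, still above the medians of single-strain regions.

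They were also weak, by the rank of their peak within its own list, where 0% marks the strongest and 100% the weakest peak. The median rank was 81% of the list for C57BL/6J-only regions and 82.1% for A/J-only regions, while shared regions had medians of 40.2% in the C57BL/6J list and 38.3% in the A/J list. In the strongest 10% of each list, 1 of 3313 C57BL/6J regions (0.0302%, 0.00533 to 0.171) and 2 of 3383 A/J regions (0.0591%, 0.0162 to 0.215) had no counterpart in the other strain. The share then grew with every step down the list. At ranks of 40 to 50% it was 8.37% (7.45 to 9.40) in C57BL/6J and 6.16% (5.39 to 7.04) in A/J. In the weakest 10% it reached 54.9% (53.2 to 56.7) in C57BL/6J and 69.7% (68.1 to 71.3) in A/J. The share was larger in C57BL/6J in each bin from 20 to 60%, with overlapping intervals at 20 to 30% and at 50 to 60%, and larger in A/J in each bin from 60 to 100%.

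**Figure D1:**
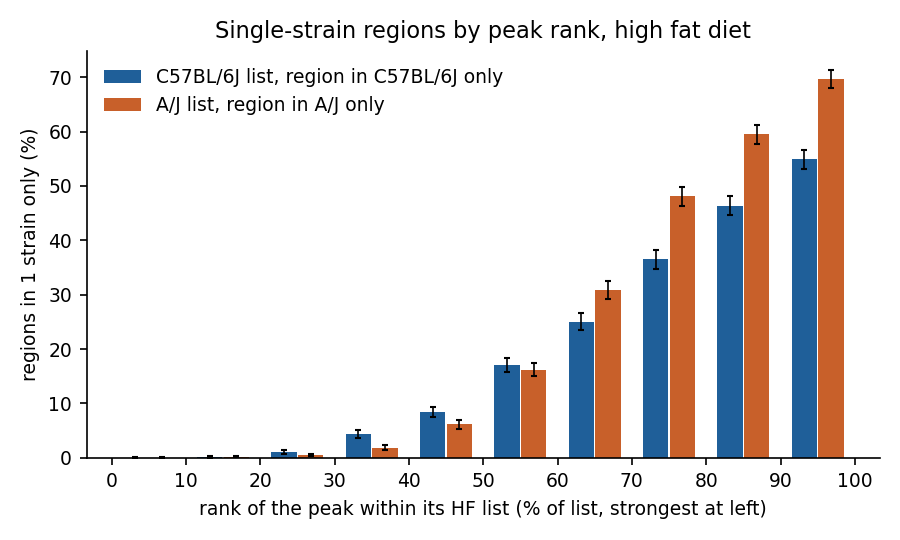
Share of regions with a peak in 1 strain only (vertical axis, percent) by the rank of the peak within its own HF list (horizontal axis, percent of the list in bins of 10%, strongest at left), for the C57BL/6J list (blue) and the A/J list (orange); error bars are 95% Wilson intervals. Both lists start under 0.1% in the strongest bin and end at 54.9% in C57BL/6J and 69.7% in A/J in the weakest.

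At the same rank, single-strain regions remained narrower than shared regions. In the weakest 10% of the lists the median region was 270 bp wide for C57BL/6J only and 356 bp for shared regions ranked there in C57BL/6J, and 274.5 bp for A/J only and 345 bp for shared regions ranked there in A/J. At ranks of 50 to 60% the widths were 331 bp for C57BL/6J only and 438 bp for shared regions, and 354 bp for A/J only and 426 bp for shared regions. Shared regions are joined from peaks of both lists, which adds to their width. These widths therefore cannot tell whether the peaks themselves differ in width at the same rank.

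The strongest C57BL/6J-only region lay on chromosome 1 from 102076674 to 102077002 (positions are in mm9, counted from 1), with a signal of 0.920 at rank 7.25% on HF. Its rank was 55.3% on C57BL/6J Control and 61.5% on C57BL/6J Reversal, and no A/J list held a peak there. The next, on chromosome 6 from 103264475 to 103264837, ranked at 10.8% on HF, 1.40% on Control and 10.4% on Reversal in C57BL/6J, again with no A/J peak on any diet. Its nearest A/J peak on HF was 334.1 kb away. The third, on chromosome 11 from 101506777 to 101507892, was 1116 bp wide with ranks of 11.5%, 10.3% and 9.99% on HF, Control and Reversal, and the fifth, on chromosome 17 from 62088234 to 62088656, stood at 21.4%, 13.4% and 29.7%. Both were without an A/J peak on all 3 diets. The fourth, on chromosome 8 from 126789566 to 126790163, ranked at 18.6% in C57BL/6J on HF and did hold A/J peaks on Control, at rank 86.3%, and on Reversal, at 67.7%. In 4 of the 5 strongest regions, then, every C57BL/6J list and no A/J list held a peak.

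In A/J the strongest region without a C57BL/6J peak lay on chromosome 6 from 146803327 to 146804148. It was 822 bp wide and ranked at 0.533% of the A/J list on HF with a signal of 2.37, at 0.961% on Control and at 0.509% on Reversal, while no C57BL/6J list held a peak. No other single-strain region of either strain ranked as high. The second, on chromosome 12 from 29379059 to 29379519, ranked at 6.30% on HF, 10.6% on Control and 6.92% on Reversal in A/J. The third, on chromosome 5 from 117534993 to 117536144, ranked at 11.6%, 9.28% and 8.98% on these diets, and the fourth, on chromosome 10 from 21147814 to 21148255, at 11.7%, 14.0% and 13.1%. None of these had a C57BL/6J peak on any diet. The fifth, on chromosome 17 from 73244842 to 73245229 at rank 15.6% on HF, had a C57BL/6J peak on Reversal only, at rank 76.3% of that list.

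The widest C57BL/6J-only regions lay on chromosome 12 from 8637346 to 8642127 (4782 bp, rank 30.8%), on chromosome 10 from 7231139 to 7235251 (4113 bp, rank 22.9%) and on chromosome 18 from 3007929 to 3011324 (3396 bp, rank 50.3%). All 3 held a peak on each C57BL/6J diet and on no A/J diet. The nearest A/J peak on HF lay 3.09 kb away on chromosome 12, 74 kb on chromosome 10 and 0.145 kb on chromosome 18. The chromosome 18 region was thus a near miss, within 200 bp of an A/J peak. The widest A/J-only regions were narrower, at 2056 bp on chromosome 7 from 20256928, 1987 bp on chromosome 7 from 38978975 and 1939 bp on chromosome 8 from 122752684. The last, at rank 91.6% on HF, had C57BL/6J peaks on Control and Reversal and no A/J peak on either, so that its strain went the other way on those diets. The nearest C57BL/6J peak on HF lay 1.87, 4.97 and 0.201 kb from these A/J-only regions, in the order given.

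The other 4 lists were not used to choose the regions, and they show how far a difference seen on HF was also present on the other diets. Of the 6002 C57BL/6J-only regions, 5268 (87.8%, 86.9 to 88.6) had no A/J peak on any diet, and of the 7646 A/J-only regions, 5598 (73.2%, 72.2 to 74.2) had no C57BL/6J peak on any diet. The share was thus 14.6 percentage points higher in C57BL/6J-only regions (95% Newcombe interval 13.3 to 15.8). In their own strain the order was the opposite: 3412 C57BL/6J-only regions (56.8%, 55.6 to 58.1) held a C57BL/6J peak on both Control and Reversal, against 5926 A/J-only regions (77.5%, 76.6 to 78.4) with an A/J peak on both, a difference of -20.7 points (-22.2 to -19.1). Both together, a peak on all 3 diets of one strain and on none of the other, held for 3046 C57BL/6J-only regions (50.7%, 49.5 to 52) and 4399 A/J-only regions (57.5%, 56.4 to 58.6). None of these differences could be tested against replicates.

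Few of these regions were seen in the HF list alone. A peak in C57BL/6J HF and in none of the other 5 lists was found in 815 C57BL/6J-only regions (13.6%, 12.7 to 14.5), and a peak in A/J HF alone in 471 A/J-only regions (6.16%, 5.64 to 6.72). A counterpart in the other strain on another diet was most frequent for A/J-only regions on C57BL/6J Reversal. There 1576 A/J-only regions (20.6%, 19.7 to 21.5) held a C57BL/6J peak, against 1150 (15%, 14.3 to 15.9) on C57BL/6J Control. Of C57BL/6J-only regions, 498 (8.30%, 7.63 to 9.02) held an A/J peak on Reversal and 612 (10.2%, 9.46 to 11) on Control. Another 173 C57BL/6J-only and 270 A/J-only regions had no peak of their own strain on either other diet and at least 1 peak of the other strain.

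Since weak peaks come and go between lists, single-strain regions were set beside shared regions of the same rank. At ranks of 70 to 80%, 65.8% of 1133 C57BL/6J-only regions (63 to 68.5) held a C57BL/6J peak on both other diets, and 67.5% of 1969 shared regions did (65.4 to 69.6). In A/J the same bin gave 89.4% of 1582 A/J-only regions (87.8 to 90.8) and 76.8% of 1708 shared regions (74.7 to 78.7). In the weakest 10% the C57BL/6J values were 28% for C57BL/6J-only regions and 37.8% for shared regions, and the A/J values 55.7% for A/J-only and 37.8% for shared regions. A/J-only regions thus recurred more often than shared regions of like rank in each of the 5 bins from 50 to 100%, with intervals that did not overlap, whereas C57BL/6J-only regions did so in 2 of these bins, with overlapping intervals. The share with no peak of the other strain on any diet fell with rank in C57BL/6J-only regions, being 93% (90.2 to 95.1) at ranks up to 50% and 85.9% (84.1 to 87.4) in the weakest 10%. In A/J-only regions it was 72.7% (67.3 to 77.5) at ranks up to 50%, 69.1% (65.1 to 72.9) at 50 to 60% and 77.7% (76 to 79.4) in the weakest 10%.

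**Figure D2:**
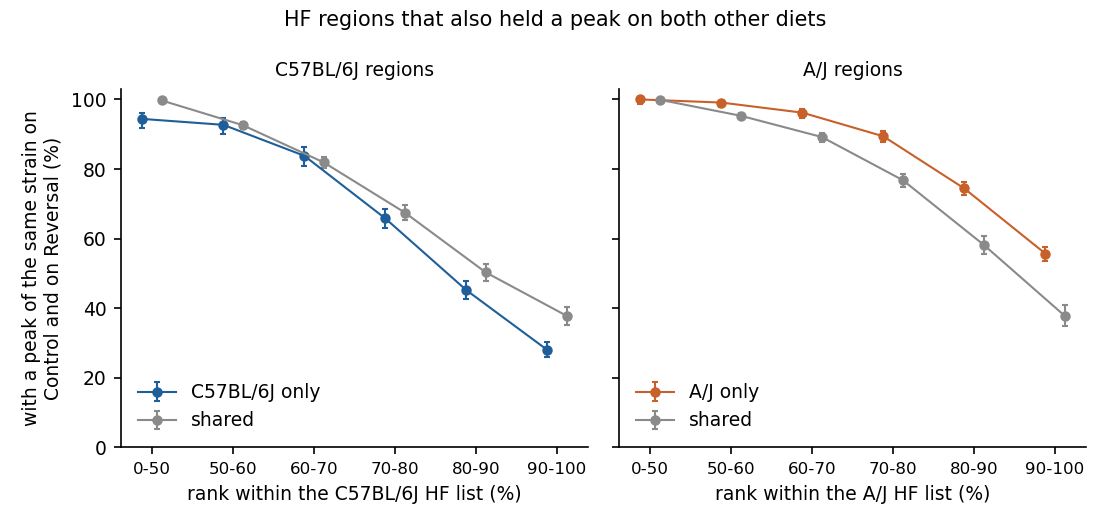
Share of HF regions that also held a peak of the same strain on Control and on Reversal (vertical axis, percent), by rank of the HF peak within its list (horizontal axis, percent), for C57BL/6J (left: C57BL/6J-only regions in blue, shared regions in grey) and A/J (right: A/J-only regions in orange, shared regions in grey); error bars are 95% Wilson intervals. Shares fall with rank in all 4 lines, to 28% in C57BL/6J-only and 55.7% in A/J-only regions, and the orange line runs above the grey one at ranks of 50 to 100%.

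Shared regions matched closely in position. Among the 24488 with 1 peak of each strain the median distance between both summits was 7 bp, 96.7% of summits lay within 100 bp, and 123 pairs (0.502%) were over 500 bp apart. The A/J peak was the wider of the pair in 75.7% of them, with median widths of 487 bp in C57BL/6J and 570 bp in A/J and a median log2 width ratio of -0.11 (C57BL/6J over A/J). The ranks in both lists were correlated across these regions (Pearson r = 0.85, Spearman rho = 0.89, given as a description, since neighbouring regions share their libraries). Several C57BL/6J peaks met 1 A/J peak in 700 regions, and 1 C57BL/6J peak met several A/J peaks in 150. Large differences in rank were rare: 47 shared regions stood in the strongest 20% of the C57BL/6J list and below 50% of the A/J list, and 7 the other way round. Ranks in lists of different length place a peak within its list and show no change between strains.

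The strongest shared regions had nearly the same place in both strains. On chromosome 2 from 98506213 to 98507704 lay the first peak of both HF lists, where the signal was 191 for C57BL/6J and 228 for A/J. Next came chromosome 13 from 85265986 to 85267359 (signal 114 for C57BL/6J and 154 for A/J) and chromosome 1 from 24618139 to 24623210 (signal 110 for C57BL/6J and 156 for A/J). These signals stand against list medians of 0.177 for C57BL/6J and 0.257 for A/J. The widest shared region, 38460 bp, ran from position 3000001 of chromosome 9, and chromosome 11 held the next 2, one from 3026927 to 3059228 and one from 3080560 to 3100078. In both chromosome 11 regions a single wide peak of one strain met many of the other: 1 C57BL/6J peak met 12 A/J peaks in the first and 8 in the second. How reads align at these strongest and widest shared regions was not tested. Their signal and width alone therefore do not show that they are regulatory elements.

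Single-strain regions were not spread evenly over the chromosomes. C57BL/6J-only regions made up between 12.5% and 20.4% of a chromosome's regions. The highest share was on chromosome 3 (355 of 1742, 20.4%, 18.6 to 22.3), followed by chromosome 1 with 20.1% (18.5 to 21.7), and the lowest, 12.5%, on chromosomes 11 (11.4 to 13.7) and 17 (11.1 to 14.1). A/J-only regions ranged from 16.1% (14.5 to 17.9) on chromosome 3 to 22.9% (21.2 to 24.8) on chromosome 6, where they numbered 482 of 2104. A/J-only regions outnumbered C57BL/6J-only ones on 17 of the 19 chromosomes, the exceptions being chromosome 1 with 480 of C57BL/6J only and 461 of A/J only, and chromosome 3 with 355 of C57BL/6J only and 281 of A/J only. Shared regions were most frequent on chromosome 11 (68.7%) and least on chromosome 14 (59.3%). Chromosome 3 had the highest C57BL/6J-only share on Control and on Reversal too, at 31% and 22.7%, and the lowest A/J-only share, at 23.2% and 22.2%, and chromosome 6 had the highest A/J-only share on both, at 31.5% and 27.1%.

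**Figure D3:**
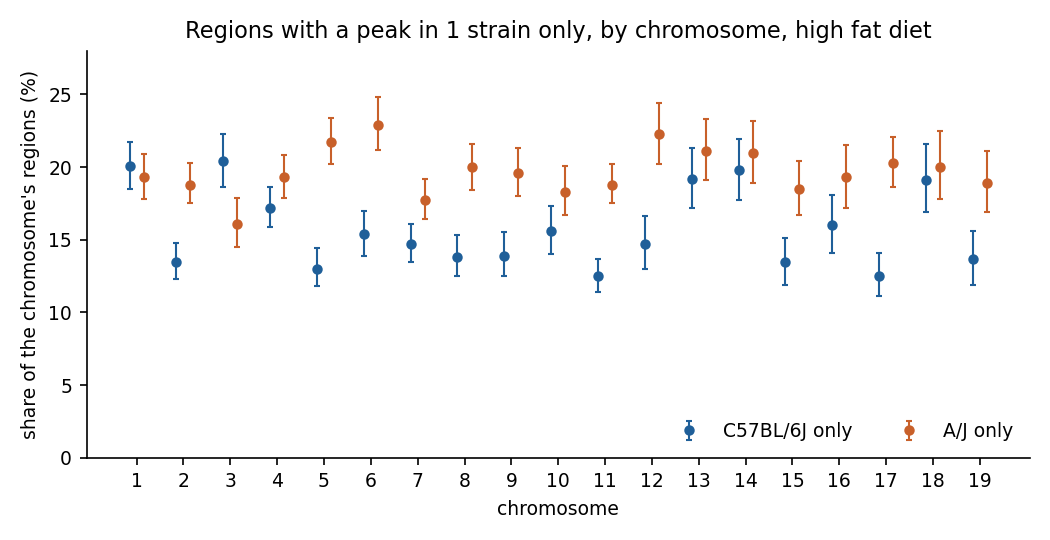
Share of each chromosome's regions (vertical axis, percent) with a peak in C57BL/6J only (blue, left of each pair) and in A/J only (orange, right), for chromosomes 1 to 19 (horizontal axis); error bars are 95% Wilson intervals. The C57BL/6J points spread from 12.5% to 20.4% and reach or pass the A/J points on chromosomes 1 and 3 only, while the A/J points lie between 16.1% and 22.9%.

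The C57BL/6J-only share was higher on chromosomes with few regions per Mb. Across the 19 chromosomes it had a Pearson r of -0.76 and a Spearman rho of -0.78 with the number of regions per Mb, which ran from 10.9 on chromosome 3 to 26.6 on chromosome 11, and the A/J-only share had -0.17 and -0.20. These values describe 19 points of the same 2 lists, and the number of regions includes the single-strain ones. The same order was seen at a finer scale, in windows of 1 Mb. In the 651 windows with 1 to 4 regions, 778 of 1697 regions were of C57BL/6J only (45.8%, 43.5 to 48.2) and 155 of A/J only (9.13%, 7.85 to 10.6). In the 260 windows with 40 or more regions, 1506 of 15544 were of C57BL/6J only (9.69%, 9.23 to 10.2) and 3187 of A/J only (20.5%, 19.9 to 21.1). Sparse windows thus held mainly C57BL/6J-only and dense windows mainly A/J-only differences, with both at a like share between 10 and 19 regions (17.8% for C57BL/6J only and 19.4% for A/J only).

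This split was as large when the windows were binned by the regions of the 4 Control and Reversal lists. The HF lists do not enter these bins, but many of the same places do. On Control, 75.5% of C57BL/6J-only and 86.1% of A/J-only regions also held a peak of their own strain. The bins are thus not independent of the single-strain regions. Windows with up to 4 such regions had 49.7% of C57BL/6J only (46.1 to 53.3) and 8.55% of A/J only (6.74 to 10.8), and windows with 40 or more had 9.86% of C57BL/6J only (9.44 to 10.3) and 20.9% of A/J only (20.3 to 21.5). Peaks in sparse windows were weaker, at a median rank of 62.3% for C57BL/6J and 61.2% for A/J, against 46.1% for C57BL/6J and 47.4% for A/J in the densest windows. Among peaks in the weaker 50% of their list, which sets rank more alike, 69.9% of C57BL/6J regions in the sparsest windows and 25% in the densest were of C57BL/6J only, while 27% of A/J regions in the sparsest and 46.2% in the densest were of A/J only. The lower signal at which the C57BL/6J list ended moves with this: with both lists kept to a signal of 0.1066 or more, the sparsest windows had 30.6% of C57BL/6J only and 17.8% of A/J only, and the densest 4.02% of C57BL/6J only and 31% of A/J only. With the strongest 20000 peaks of each list the sparsest windows had 32.8% of C57BL/6J only and 7.55% of A/J only, and the densest 7.31% of C57BL/6J only and 15.5% of A/J only.

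**Figure D4:**
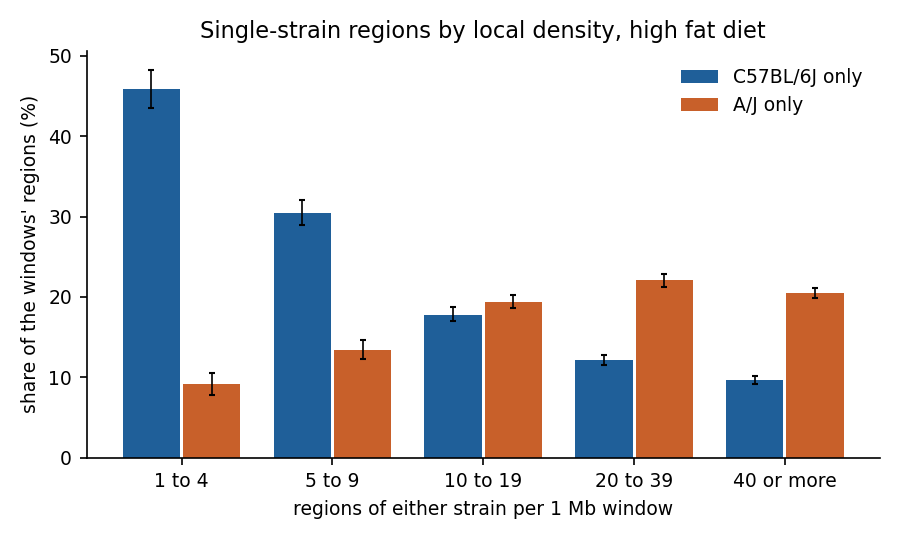
Share of regions with a peak in C57BL/6J only (blue, left bar of each pair) and in A/J only (orange, right bar) in percent (vertical axis), in windows of 1 Mb grouped by their number of regions of either strain (horizontal axis); error bars are 95% Wilson intervals. The blue bars fall from 45.8% in the sparsest to 9.69% in the densest windows, while the orange bars lie at 9.13% in the sparsest and 20.5% in the densest.

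Distances to the other strain followed the same order. A C57BL/6J-only region lay a median of 19.7 kb from the nearest A/J peak on HF (quartiles 4.45 and 97.4 kb), and 1480 (24.7%) were over 100 kb away from one. An A/J-only region lay a median of 6.93 kb from the nearest C57BL/6J peak (quartiles 1.65 and 22.6 kb), and 382 (5%) were over 100 kb away. Near misses were few: 188 C57BL/6J-only regions (3.13%) and 416 A/J-only regions (5.44%) had a peak of the other strain within 200 bp.

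Regions of one strain were found next to each other. The region that followed a C57BL/6J-only region along the chromosome was again C57BL/6J-only in 27% of cases (25.9 to 28.1), beside 15.4% among all regions, and the region that followed an A/J-only region was again A/J-only in 25.7% (24.7 to 26.7), beside 19.6% among all. The shares among all regions make no allowance for local density, with which the single-strain shares changed. Whether neighbours were alike beyond density was not tested. Runs of 5 or more neighbouring regions of one strain numbered 79 in C57BL/6J, with 489 regions, and 49 in A/J, with 306 regions. The bias of a window towards one strain was also seen on the other diets. Across windows with at least 10 regions on both diets, the C57BL/6J-only share on HF had a Pearson r of 0.74 with that on Control (1185 windows) and 0.72 with that on Reversal (1148 windows), and the A/J-only share 0.68 with either. These are descriptions over windows of lists from separate libraries, and windows share base composition and density in all lists.

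The longest C57BL/6J run lay on chromosome 4 from 60097793 to 61107596, where 15 neighbouring regions over 1.01 Mb held a C57BL/6J peak and none an A/J peak. Their ranks ran from 61.1% to 99.1% with a median of 78.5%. On Control the same stretch held 5 regions of C57BL/6J only, 1 of A/J only and none shared, and on Reversal 8 of C57BL/6J only, 2 of A/J only and 1 shared. As background, chromosome 4 also carries the clustered Mup genes, which encode the major urinary proteins made in liver and differ in copy number and expression among inbred strains. Whether the run touches that cluster was not examined. Another 3 runs had 11 regions each. The one on chromosome 1 from 85077358 to 85102680 packed them into 25.3 kb, while those on chromosome 1 from 117240966 to 119920362 and on chromosome 14 from 91842960 to 95071975 spread over 2.68 and 3.23 Mb. None of these 3 stretches held an A/J peak on any diet, while C57BL/6J held 7, 17 and 17 regions in them on Control and 6, 6 and 10 on Reversal.

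The longest A/J run lay on chromosome 17 from 30761087 to 31048193, with 18 neighbouring A/J-only regions over 287.1 kb. Their ranks ran from 35.7% to 97.9% with a median of 76%. On Control the stretch held no region of C57BL/6J only, 14 of A/J only and 1 shared, and on Reversal none of C57BL/6J only, 11 of A/J only and 1 shared. As background, a segment of chromosome 17 with the glyoxalase gene Glo1 is known to be duplicated in A/J and several other strains. Whether the run lies in it was not examined. Chromosome 5 held the next run, of 14 regions over 94.1 kb from 15116872 to 15210948, and another of 10 regions from 14929015 to 14987320. On Control these gave 3 regions of C57BL/6J only and 4 of A/J only in the longer, and 3 of C57BL/6J only and 5 of A/J only in the shorter. The remaining run of 10, on chromosome 18 from 12809064 to 12861384, had no region of C57BL/6J only and 8 of A/J only on Control, and 1 of C57BL/6J only and 7 of A/J only on Reversal.

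**Figure D5:**
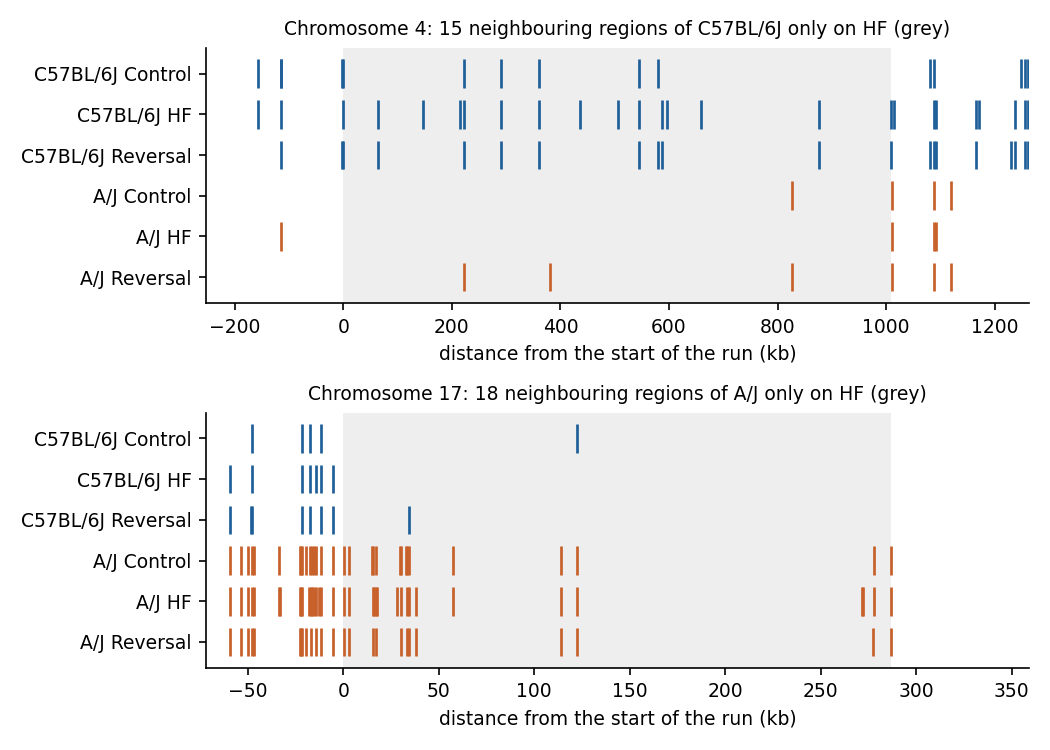
Peaks of the 6 lists (ticks at peak centres; C57BL/6J in blue in the upper 3 rows, A/J in orange in the lower 3) around the longest run of C57BL/6J only on chromosome 4 (top) and of A/J only on chromosome 17 (bottom), by distance from the start of the run in kb; the run, called on HF, is shaded. The shaded stretch holds 15 regions of C57BL/6J only and no A/J peak on HF at the top, and 18 regions of A/J only and no C57BL/6J peak on HF at the bottom, while other diets hold a few peaks of the other strain.

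Counted in windows of 1 Mb, C57BL/6J-only regions were most numerous on chromosome 1 from 85 to 86 Mb, with 36 of C57BL/6J only, 4 of A/J only and 11 shared. On Control this window held 57 of C57BL/6J only, none of A/J only and 7 shared, and on Reversal 41 of C57BL/6J only, none of A/J only and 2 shared. On chromosome 7 from 67 to 68 Mb there were 18 of C57BL/6J only, none of A/J only and 6 shared. Control gave 16 of C57BL/6J only, 1 of A/J only and 3 shared in that window. Reversal gave fewer, with 5 of C57BL/6J only, none of A/J only and 1 shared. The window on chromosome 8 from 19 to 20 Mb had 19 of C57BL/6J only but also 19 of A/J only, with 43 shared. On Control it held 29 of C57BL/6J only and 12 of A/J only, and on Reversal 24 of C57BL/6J only and 15 of A/J only, so that it was rich in differences of both kinds.

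A/J-only regions were most numerous on chromosome 18 from 12 to 13 Mb, with 3 of C57BL/6J only, 31 of A/J only and 16 shared. Chromosome 17 from 30 to 31 Mb followed with 1 of C57BL/6J only, 30 of A/J only and 13 shared. Both had this order on Control too, with 4 of C57BL/6J only and 35 of A/J only on chromosome 18 and 1 of C57BL/6J only and 31 of A/J only on chromosome 17. On Reversal the counts were 6 of C57BL/6J only and 30 of A/J only on chromosome 18, and none of C57BL/6J only and 21 of A/J only on chromosome 17. Chromosome 2 from 167 to 168 Mb and chromosome 6 from 90 to 91 Mb tied at 28 of A/J only, with 6 of C57BL/6J only on chromosome 2 and 1 on chromosome 6. The shared regions of these windows were compared by rank, as a description only. The same HF lists chose the windows, so the ranks are no separate check of their lean. The A/J rank was the stronger one in 12 of 13 shared regions of the chromosome 17 window (median rank 53.9% in C57BL/6J and 32.2% in A/J), in 12 of 16 on chromosome 18, in 34 of 42 on chromosome 6 and in 60 of 90 on chromosome 2, beside 58.8% of all shared regions. In the windows rich in C57BL/6J-only regions the C57BL/6J rank was the stronger one in 6 of 11 shared regions on chromosome 1, in 4 of 6 on chromosome 7 and in 21 of 43 on chromosome 8.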

How the data were processed

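FAIRE-seq peak lists of mouse liver were used, 1 per strain and diet. Bowtie2, TopHat, DESeq2 and the assembly mm9 are listed, without role or version, per the submitters' processing notes. The sources used here do not give the peak caller, its threshold, any pooling of libraries or the depth of a library. Strain and diet of a list are known from its name only. The signal of each peak is the authors' deposited value, of unstated scale, and it served to rank peaks within a list.

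Regions, ranks, intervals and distances were computed with Python 3.11.15, numpy 2.4.6, pandas 2.3.3 and scipy 1.17.1. A rank is the place of a peak in its whole list, in percent, and a region takes its strongest peak. Windows of 1 Mb took regions by their start. Joining of peaks was tested on simulated lists. Named regions were, for each strain, the 5 strongest and 3 widest single-strain regions, the 3 longest runs and the 3 richest windows, ties included, and the 3 strongest and 3 widest shared regions. The regions and comparisons were chosen with earlier results of these data known. The 2 expression tables were not used here, since they compare diets within a strain. Peaks on chromosomes X and Y lie outside the comparison. Alternatives for overlap and threshold were tried.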

Additional observations from a re-analysis of the deposited data

Results flagged for a closer look

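Chromosomes X and Y were not part of the comparison of chromosomes 1 to 19. They are shown because both leaned more to C57BL/6J than those did. On HF chromosome X held 558 regions of C57BL/6J only (46.2%, 43.4 to 49.1) and 89 of A/J only (7.37%, 6.03 to 8.99) among 1207. On Control the shares on X were 62.8% of C57BL/6J only and 6.75% of A/J only, and on Reversal 49.7% of C57BL/6J only and 7.87% of A/J only. On chromosome Y, 59.2% of regions (50.2 to 67.5) were of C57BL/6J only on HF, 82.4% on Control and 66% on Reversal. Regions of A/J only made up 0% of those on Y on HF and Reversal and 0.654% on Control. The difference of X and Y from the other chromosomes was not tested, and they were not compared at like density. On chromosomes 1 to 19, windows of 1 Mb with 1 to 4 regions had 45.8% of C57BL/6J only and 9.13% of A/J only on HF. These are close to the HF shares on X.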

How the results depend on the processing

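No paired analysis was possible because each strain and diet has 1 list with no values per library, and for the same reason no library could be left out. A/J-only regions outnumbered C57BL/6J-only ones under all 6 alternatives for overlap and threshold, but the counts depend on the threshold. With the strongest 20000 peaks of each list there were 2664 regions of C57BL/6J only, 3227 of A/J only and 73.4% shared, and with the strongest 10000 there were 923 of C57BL/6J only, 1088 of A/J only and 81.3% shared. With both lists kept to a signal of 0.1066 or more there were 2705 of C57BL/6J only, 10928 of A/J only and 61.8% shared, and since the scale is not given this floor may not be the same in both strains. An overlap of at least 50% of both peaks left 58.5% shared, with 8014 regions of C57BL/6J only and 9114 of A/J only, and joining peaks up to 200 bp apart gave 65.7%. Single-strain regions with a peak in the stronger 50% of the list were then taken alone. No peak of the other strain on any diet was found in 93% of C57BL/6J-only and 72.7% of A/J-only regions (67.3 to 77.5). A peak on both other diets of their strain was held by 94.4% of C57BL/6J-only and 100% of 289 A/J-only regions (98.7 to 100). Among regions wider than the median of their class the first share was 86.3% in C57BL/6J-only and 69.3% in A/J-only regions and the second 65.7% in C57BL/6J-only and 79.5% in A/J-only regions. The cause of these shifts was not tested, beyond the fact that a stricter threshold leaves fewer peaks. The longest runs shrank to 13 regions of C57BL/6J only and 7 of A/J only among the strongest 20000 peaks and 6 of C57BL/6J only and 4 of A/J only among the strongest 10000. At a signal of 0.1066 or more they had 8 of C57BL/6J only and 30 of A/J only. With peaks up to 200 bp apart joined, the longest run kept 15 regions of C57BL/6J only but went from 18 to 13 of A/J only. Which strain had the longer run thus depended on how peaks were joined and cut. The density comparison and the run lengths were added to the alternatives after the data were seen.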
